A study of Mus musculus with 8 samples.

Results

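The imprinted Dlk1-Dio3 domain of mouse chromosome 12 holds one of the largest groups of miRNA genes known in mammals, and 24 of its mature miRNAs were listed in the small RNA libraries of developing B cells. The members were chosen by name, as the rows of the miRNA table that carry the mouse prefix mmu- and one of 45 family names of this domain. They came from 18 of these families and 18 hairpins, out of 671 rows with the mouse prefix and 1600 rows in all. The other 27 families had no row in this table, which lists only miRNAs with at least 3 tags over the 4 libraries together, so no upper limit per library was set for them.

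Cells of 4 stages, from pro-B through pre-B and immature B to mature B, were sorted from the bone marrow of wild type female C57BL/6 mice of 8 to 10 weeks, without any treatment. The gates were B220+IgM-CD43+ for pro-B cells, B220+IgM-CD43- for pre-B cells, B220+IgM+CD43- for immature B cells and B220hiIgM+CD43- for mature B cells. Each pool held cells of 3 mice, and each stage had 1 small RNA library and 1 long RNA library. Whether both libraries of a stage came from the same pool is not stated. With 1 library per stage no difference between stages has a replicate check, no test between stages was made, and every interval below covers counting error alone, for tags without molecular identifiers.

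In this domain, Dlk1, Rtl1 and Dio3 are transcribed from the paternal chromosome, and the noncoding RNAs Meg3, Rian and Mirg from the maternal one. The miRNAs are cut from the maternal noncoding transcripts, so a cell can make them only where that strand is transcribed. They are known best from embryo, placenta and brain, and in blood formation from long-term stem cells, where the maternal noncoding RNAs are abundant. The seed, bases 2 to 8 of the mature strand, pairs with target mRNAs, and miRNAs with the same seed can share targets.

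All 18 hairpins lie on the plus strand of chromosome 12 by RefSeq on GRCm38.p6, in a pair of groups 113.7 kb apart. The first group, 4 hairpins within 3.67 kb (chr12:109591715-109595388), lies opposite Rtl1, and its miR-127 and miR-136 are known to direct cleavage of Rtl1 mRNA. The second group, 14 hairpins within 34.7 kb (chr12:109709060-109743795), runs from Mir379 to Mir410. In the whole interval between Dlk1 and Dio3 the annotation has 58 hairpins, 54 on the plus strand and 4 on the minus strand. The only other listed mouse miRNA that the annotation places in the interval was miR-1247-5p, with 0 tags at the pro-B stage, 4 at pre-B, 1 at immature B and 0 at mature B.

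The mature sequences of the 13 members that reached 10 tags in at least 1 library are shown because their values carry the comparisons below. They are written 5′ to 3′ in order along the chromosome, with the seed in capitals.
miR-433-3p: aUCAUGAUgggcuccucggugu
miR-127-3p: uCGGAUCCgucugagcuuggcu
miR-434-3p: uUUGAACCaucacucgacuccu
miR-136-3p: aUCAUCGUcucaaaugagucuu
miR-411-5p: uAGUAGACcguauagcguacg
miR-323-3p: cACAUUACacggucgaccucu
miR-494-3p: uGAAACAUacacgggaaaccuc
miR-543-3p: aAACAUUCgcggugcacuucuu
miR-541-5p: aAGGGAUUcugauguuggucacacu
miR-409-5p: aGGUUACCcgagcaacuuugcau
miR-409-3p: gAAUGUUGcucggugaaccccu
miR-369-3p: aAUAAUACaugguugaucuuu
miR-410-3p: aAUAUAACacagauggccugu

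The 24 members had 24 different seeds, and none of these seeds occurred in a listed mouse miRNA outside the cluster. The nearest pairs were miR-411-5p with miR-379-5p and miR-410-3p with miR-411-3p, whose seeds differ at 1 letter. The listed sequence of 23 members was identical to the RefSeq mature sequence, and that of miR-487b-3p, which the mature table does not hold, lay within its hairpin. Mature lengths ran from 21 to 25 bases and GC content from 23.8% to 59.1%, with a median of 45.5%. The first base was U in 10 members and A in 10.

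The small RNA libraries held 768752 mmu- tags at the pro-B stage, 1444396 at pre-B, 2106537 at immature B and 1060387 at mature B, so 1 tag stands for 0.475 to 1.301 CPM, that is, counts per 1000000 tags of the mmu- total. Values given in a row of 4 run from pro-B to mature B. Marker genes in the long RNA libraries were compared with the labels. The pro-B list summed to 2321 CPM of the mRNA counts in the pro-B library and to 44.7 to 179 in the others, and the mature B list to 4427 CPM in the mature B library and 232 to 635 in the others. The immature B list was highest in the immature B library (9504 CPM), but it was also at 7530 CPM in pre-B, 5087 in mature B and 4337 in pro-B cells. Of this list, Ighm was at 7816 CPM in the immature B and 7147 CPM in the pre-B library. Igkc and Ms4a1 were also highest in the immature B library. Cd93 went the other way, at 429, 183, 94.0 and 56.5 CPM. The pre-B list was at 1278 CPM in the pro-B library and at 1066 CPM in the pre-B library, so it did not set the pre-B library apart. The 6 T and NK cell genes summed to 205 CPM in the pro-B library, with 1 of 6 at 0, to 5.89 CPM in the mature B library, and were all at 0 in the pre-B and immature B libraries.

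The pro-B and mature B small RNA libraries also stood apart from the other pair in miRNAs known from other tissues or animals. The 19 listed miRNAs of the X-linked cluster that is known from testis had 3274 summed tags at the pro-B stage, 3 at pre-B, 0 at immature B and 937 at mature B, although the mice were female. Of these, miR-741-3p alone had 1159, 0, 0 and 372 tags, and the 19 rows held 17 sequences, since miR-465a-3p, miR-465b-3p and miR-465c-3p share theirs and list the same 153, 0, 0 and 42 tags. A row named miR-430-y, for a family known from fish, had 1218, 1, 0 and 1587 tags, and its sequence had at least 6 mismatches to each of 1005 mouse hairpins. Both were picked after their values were seen. In the long RNA libraries 8 testis genes summed to between 1 and 4 counts. The cluster members were high in the same pair of libraries, and the part that such tags have in the member tags was not tested. The 1 comparison that uses neither library, immature B against pre-B, is therefore given on its own below.

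The summed tags of the 24 members were high in the pro-B and mature B libraries and low in the libraries between them. There were 755 tags at the pro-B stage, 128 at pre-B, 117 at immature B and 534 at mature B. The level was 982 CPM for pro-B cells (95% exact Poisson interval 913 to 1055), 88.6 for pre-B (73.9 to 105), 55.5 for immature B (45.9 to 66.6) and 504 for mature B (462 to 548). The order was thus pro-B, mature B, pre-B and immature B, and no neighbouring intervals in this order overlapped.

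**Figure D1:**
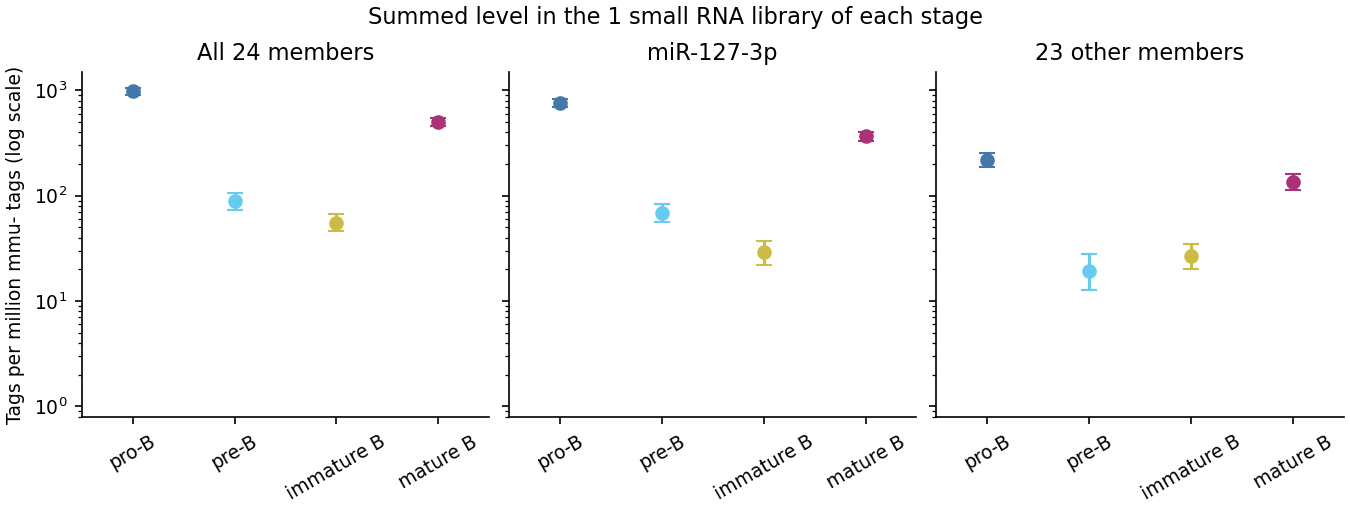
Points are CPM of the mmu- total on a log axis in the 1 small RNA library of each stage, with 95% exact Poisson intervals as bars, for all 24 members (left), miR-127-3p (middle) and the 23 other members (right). In each panel the pro-B and mature B points stand above the other points, at 982 and 504 for the sum of all members.

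From pro-B to pre-B cells the summed level was 11.1-fold lower (95% exact conditional interval of the ratio 9.18 to 13.5). From pre-B to immature B cells, the comparison without the libraries that stood apart, it was 1.60-fold lower (1.23 to 2.07). This pair also differed in miRNAs of other tissues, with the liver list at 15969 CPM in pre-B and 1093 CPM in immature B cells, the stromal list at 2760 and 108 and the erythroid list at 302 and 45.6, and their part in the result was not tested. From immature B to mature B cells it was 9.07-fold higher (7.41 to 11.2), and mature B cells were 1.95-fold under pro-B cells (1.74 to 2.18). The first and last ratios depended on the scaling. Pre-B over pro-B was 0.0902 over the mmu- totals, 0.136 with TMM factors of edgeR and 0.141 with DESeq2 size factors, and mature B over pro-B was 0.513, 0.787 and 0.943.

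At least 1 tag was found for 19 members at the pro-B stage, 12 at pre-B, 14 at immature B and 18 at mature B. The pro-B library was the shallowest. Drawn down to its mmu- total, the expected numbers were 9.71 at pre-B, 11.1 at immature B and 17.3 at mature B, while over all mmu- miRNAs they were 492, 497 and 480 against 542 found at pro-B. At least 10 tags were reached by 8 members at pro-B, 1 at pre-B, 2 at immature B and 9 at mature B. Across libraries, 7 members were found in all 4, 6 in 3, 6 in 2 and 5 in 1.

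miR-127-3p, from the group opposite Rtl1, held most of the tags. It had 586 tags at the pro-B stage, 100 at pre-B, 61 at immature B and 390 at mature B, or 762, 69.2, 29.0 and 368 CPM. Among the 671 mmu- miRNAs it ranked 87th, 172nd, 206th and 90th. Its share of the member tags was 77.6% at pro-B (95% exact binomial interval 74.5% to 80.5%), 78.1% at pre-B (70.0% to 84.9%), 52.1% at immature B (42.7% to 61.5%) and 73.0% at mature B (69.1% to 76.8%). The level was 11.01-fold lower at pre-B than at pro-B (8.89 to 13.8), 2.39-fold lower at immature B than at pre-B (1.72 to 3.34), and 12.7-fold higher in mature B than in immature B cells (9.68 to 16.9). It was 2.07-fold lower in mature B than in pro-B cells (1.82 to 2.36), a ratio of 0.482 that became 0.741 with TMM factors, 0.887 with DESeq2 size factors and 0.715 without the 10 most abundant miRNAs in the total.

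The 23 members other than miR-127-3p followed the same outline at the ends but not in the middle. Their tags numbered 169, 28, 56 and 144 from pro-B to mature B cells, or 220, 19.4, 26.6 and 136 CPM. They were 11.3-fold lower in pre-B cells than at the pro-B stage (7.57 to 17.6) and 5.11-fold higher in mature B than in immature B cells (3.73 to 7.09). From pre-B to immature B cells, where the sum of all members was lower, these 23 stood at a ratio of 1.37 (0.856 to 2.24), an interval that holds 1. The lower sum at this step therefore rested on miR-127-3p.

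In the first group of hairpins, the members besides miR-127-3p were close to absent between the ends. miR-433-3p had 8 tags at pro-B, 0 at pre-B, 0 at immature B and 10 at mature B. For miR-136-3p the tags were 3, 3, 1 and 11, and its other arm, miR-136-5p, had 4, 0, 0 and 0. miR-434-3p had 10, 1, 0 and 0 tags, and miR-434-5p had 6, 0, 0 and 1. miR-433-3p was thus found at both ends, miR-434 mostly in pro-B cells and miR-136-3p most often in mature B cells. Without miR-127-3p the group summed to 31, 4, 1 and 22 tags. A count of 0 allows up to 3 tags, which is 2.08 CPM in the pre-B library and 1.42 CPM in the immature B library, and miR-433-3p was at least 6.62-fold higher in mature B than in immature B cells with its 10 tags set against this limit, while the exact interval of the ratio began at 4.45.

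At the start of the second group, miR-411-5p was high in the pro-B library alone. It had 20 tags at the pro-B stage, 4 at pre-B, 5 at immature B and 2 at mature B, with 26.0 CPM at pro-B and 1.89 to 2.77 CPM after it. Its ratio of pro-B to mature B cells was 13.8 (3.35 to 122). The other arm, miR-411-3p, had 1, 3, 0 and 1 tags, and the neighbour miR-379-5p had 2, 1, 2 and 0. Each arm of miR-299a had 3 tags in all, those of miR-299a-3p in pre-B cells and those of miR-299a-5p in mature B cells.

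Further along, miR-494-3p had 27, 4, 7 and 14 tags, and was 12.7-fold lower in pre-B cells than at the pro-B stage (4.42 to 49.9) and 3.97-fold higher in mature B than in immature B cells (1.501 to 11.6). miR-323-3p had 4, 0, 4 and 13 tags and miR-543-3p had 4, 0, 7 and 17. The last pair was highest in mature B cells, and miR-543-3p was 3.08-fold higher there than in pro-B cells (1.01 to 12.6), whereas the interval for miR-323-3p (0.728 to 9.92) held 1. miR-300-3p had 7, 0, 2 and 8 tags, miR-495-3p had 7, 2, 0 and 0, and miR-487b-3p had 3 tags, in mature B cells. For miR-382-5p there were 0, 0, 4 and 4 tags and for miR-382-3p 0, 0, 3 and 0, so this hairpin had no tag in the pro-B or pre-B library.

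At the far end lie miR-541, miR-409, miR-369 and miR-410. miR-409-5p had 24, 2, 11 and 15 tags and its other arm, miR-409-3p, 12, 4, 2 and 7. The 5p arm was the only member besides miR-127-3p with 10 tags or more in immature B cells, and its ratio of immature B to pre-B cells was 3.77, with an interval from 0.823 to 35.01. miR-541-5p had 15, 0, 4 and 6 tags and was at least 9.39-fold lower in pre-B cells than at the pro-B stage against the limit of 3 tags, with an exact interval from 6.74. miR-369-3p had 11, 1, 4 and 14 tags, and miR-410-3p 4, 0, 0 and 15. miR-410-3p was at least 9.93-fold higher in mature B than in immature B cells against the same limit, with an exact interval from 7.13, while miR-369-3p differed between mature B and pro-B cells by less than counting error (ratio 0.923, 0.389 to 2.25).

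**Figure D2:**
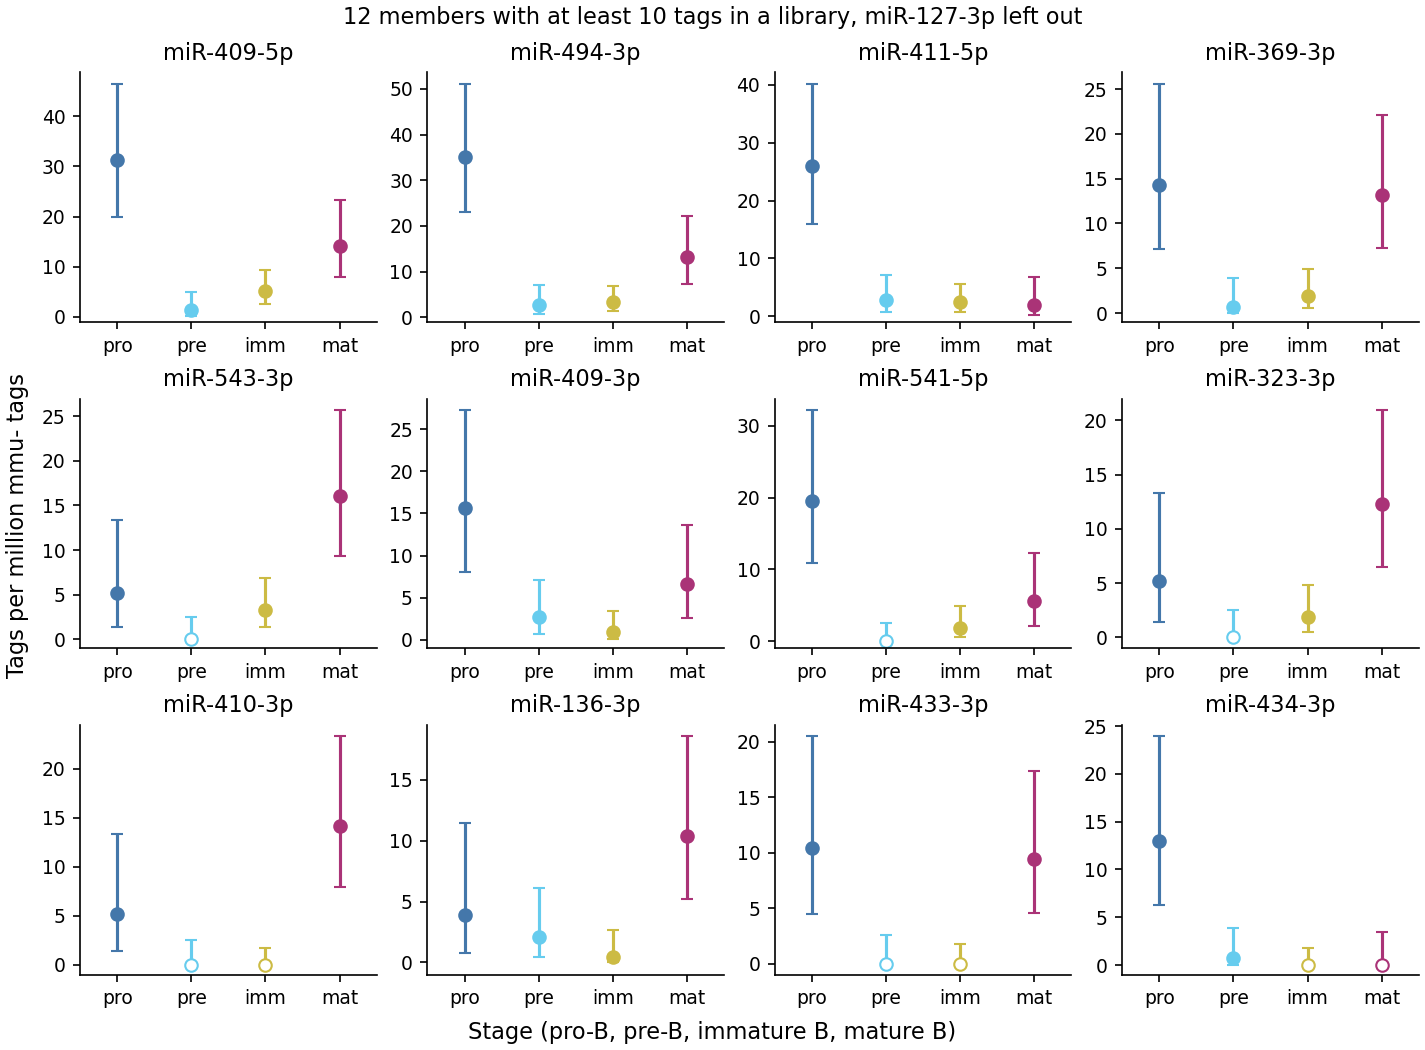
Each panel is 1 of the 12 members with at least 10 tags in a library, miR-127-3p left out, in CPM of the mmu- total on its own linear axis, with 95% exact Poisson intervals as bars and open points for 0 tags (pro, pre, imm and mat are short for the stages in their order). The pre-B points stay at or below 2.77, miR-411-5p and miR-434-3p are high in pro-B cells alone, and miR-543-3p, miR-323-3p, miR-410-3p and miR-136-3p are highest in mature B cells.

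Summed by position, the first group had 617, 104, 62 and 412 tags and the second 138, 24, 55 and 122. The first was 11.1-fold lower in pre-B cells than at the pro-B stage (9.04 to 13.9) and the second 10.8-fold lower (6.97 to 17.4), with overlapping intervals. From pre-B to immature B cells the first group was 2.45-fold lower (1.77 to 3.41) and the second stood at a ratio of 1.57 (0.957 to 2.65). From immature B to mature B cells the ratios were 13.2 (10.1 to 17.5) and 4.41 (3.18 to 6.17). The intervals of the groups did not overlap at these steps, but miR-127-3p held 100 of the 104 and 61 of the 62 tags of the first group in pre-B and immature B cells. Without it the first group stood at 0.171 for immature B over pre-B (0.00348 to 1.73) and at 43.7 for mature B over immature B (7.06 to 1804), the former overlapping the second group.

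**Figure D3:**
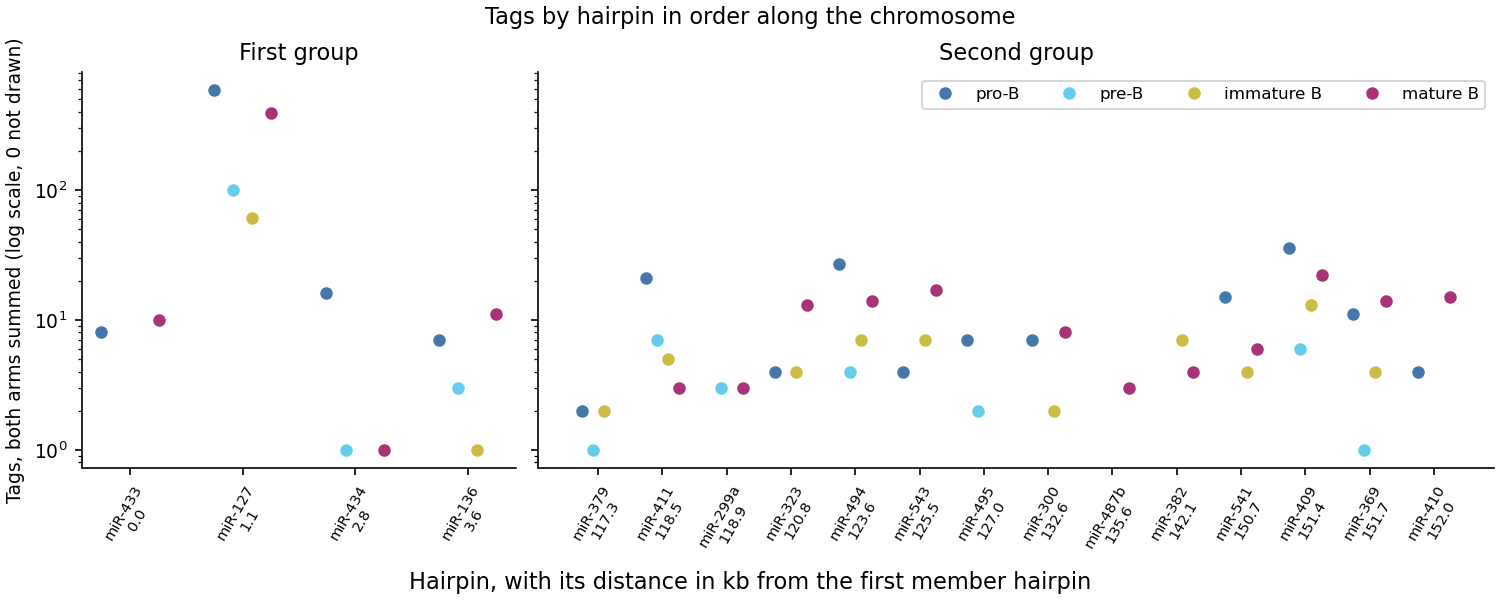
Tags per hairpin, with both arms summed, on a log axis for the 4 libraries, with hairpins in order along the chromosome and their distance in kb from the first member hairpin under each name (0 tags not drawn). miR-127 stands far above the rest, and most hairpins of both groups have their largest counts in the pro-B or the mature B library.

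Of the 24 members 16 were 3p arms and 8 were 5p arms, and 6 hairpins gave both. In Mir411 the 3p arm held 5 of 36 tags over the 4 libraries (13.9%, 95% exact binomial interval 4.67% to 29.5%) and in Mir409 25 of 77 tags (32.5%, 22.2% to 44.1%), so the 5p arm led in both. In Mir136 the 3p arm held 18 of 22 tags (81.8%, 59.7% to 94.8%). The intervals of Mir434, Mir382 and Mir299a ran from 35.7% to 82.7%, from 6.02% to 61.0% and from 11.8% to 88.2%, which leaves their leading arm undecided at this depth.

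To set the members beside all mouse miRNAs, a miRNA was counted as higher or lower when it differed at least 2-fold in CPM, among those with at least 10 tags in 1 of the 2 libraries. In pre-B against pro-B cells 8 members had enough tags, and 0 were higher and 8 lower, where 6.46% of all 387 miRNAs with enough tags were higher and 41.1% lower. Of these 8 members 7 had enough tags in the pro-B library only, so they were bound to be lower and their count is no support in itself. In immature B against pre-B cells 2 members had enough tags, miR-409-5p higher and miR-127-3p lower, beside 10.8% higher and 17.6% lower of 369 miRNAs.

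In mature B against immature B cells 9 members were higher and 0 lower of 9 with enough tags, beside 31.9% higher and 28.6% lower of 385 miRNAs, and 7 of the 9 had enough tags in the mature B library only and were bound to be higher. In mature B against pro-B cells 4 members were higher, 7 lower and 2 neither, of 13, beside 11.2% higher and 52.7% lower of 383 miRNAs. Of these 13, 5 had enough tags in the mature B library only and 4 in the pro-B library only, and the 4 higher members were all among the former, so the counts follow the filter in part. The median log2 ratio was -1.05 for the 13 and -1.14 for the 383. With TMM factors 3 of the 13 were lower in mature B cells and with DESeq2 size factors 2, when the median of the 383 was -0.52 and -0.26.

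A low middle was counted where both pro-B and mature B cells were at least 2-fold above both pre-B and immature B cells, a rule made after the values were seen. It was met by 9 of the 13 members with at least 10 tags in any library, and by 64 of 426 mmu- miRNAs (15.0%). Of the 13 members 11 reached 10 tags in the pro-B or mature B library only, against 57 of the 426, so most members came in through the libraries that the rule needs high and the counts are a description alone. The 9 were miR-127-3p, miR-409-5p, miR-494-3p, miR-369-3p, miR-409-3p, miR-541-5p, miR-323-3p, miR-410-3p and miR-433-3p. The other 4, miR-411-5p, miR-543-3p, miR-136-3p and miR-434-3p, missed it at 1 end each. Of the X-linked cluster known from testis, the 64 also held every miRNA with at least 10 tags in a library. The 64 are thus no plain background of B-cell miRNAs. Among the further miRNAs that met it were miR-10b-5p with 826, 138, 84 and 420 tags and the testis-type miR-34c-5p with 994, 17, 2 and 300. So did miR-215-5p with 2530, 2, 1 and 718, miR-146b-5p with 2441, 1254, 1808 and 2432 and miR-150-3p with 207, 32, 155 and 791.

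**Figure D4:**
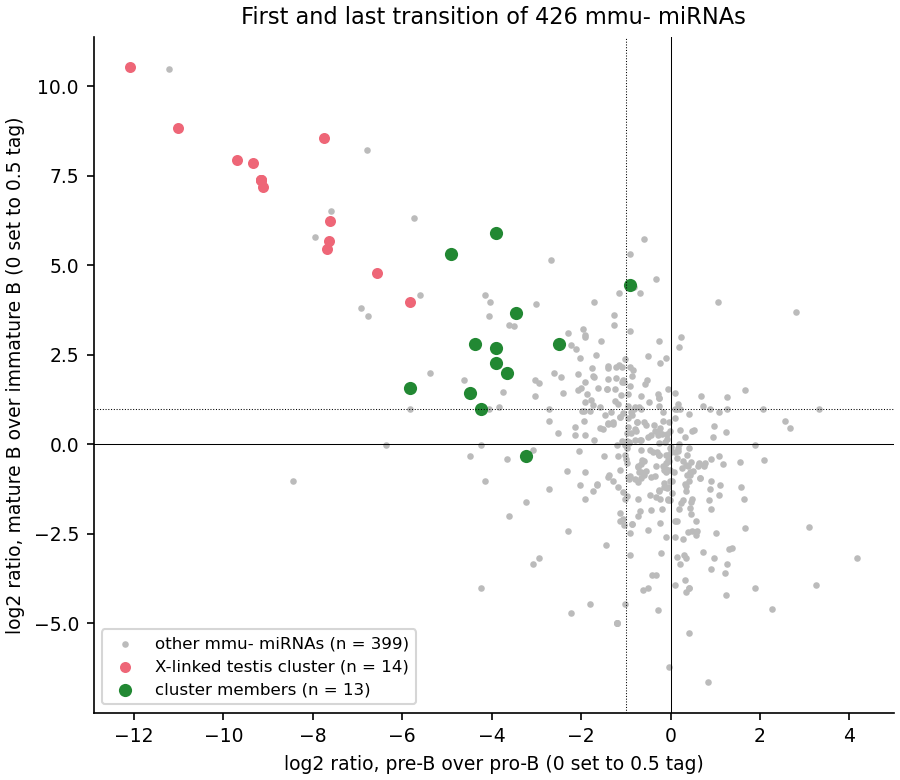
Each point is 1 of 426 mmu- miRNAs with at least 10 tags in a library, with the log2 ratio of pre-B over pro-B cells across and of mature B over immature B cells upwards (0 tags set to 0.5, dotted lines at 2-fold lower and 2-fold higher). The 13 cluster members (green) lie mostly in the upper left with 14 miRNAs of the X-linked testis cluster (red), which reach farther out. The remaining 399 (grey) lie on all sides of the origin.

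The ratio of pro-B to mature B tags, without scaling to the mmu- totals, was set side by side for the lists that were high in both libraries. It was 1.41 for the members (95% exact interval 1.26 to 1.58), 1.503 for miR-127-3p (1.32 to 1.71) and 1.17 for the other 23 (0.934 to 1.48). For the 19 miRNAs of the X-linked cluster it was 3.49 (3.25 to 3.76) and for miR-430-y 0.767 (0.712 to 0.828). The X-linked sum counts tags of shared sequences more than once, which its interval does not allow for. With each of its 17 sequences counted once, the tags were 2968 at pro-B and 853 at mature B. In CPM, pro-B over mature B was 1.95 for the members, 2.07 for miR-127-3p and 1.62 for the other 23 (1.29 to 2.04). The 19 miRNAs of the X-linked cluster were at 4259 CPM in the pro-B and 884 CPM in the mature B library. The row miR-430-y was at 1584 CPM in the pro-B and 1497 CPM in the mature B library. The unscaled ratio of the members lay between those of the X-linked cluster and miR-430-y. The pre-B and immature B libraries, with 3 and 0 tags of the X-linked cluster, held 128 and 117 member tags. The part of such tags in the member tags was not tested.

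Rows named for other species made up 822 of the 1600, and 10 of them carried family names of the cluster. They summed to 267 tags at pro-B, 33 at pre-B, 27 at immature B and 180 at mature B, of which miR-380-y alone had 196, 26, 13 and 148. Their sequences had 1 to 6 mismatches to the nearest mouse hairpin of the domain, and miR-380-y had 3. With 6 each, miR-494-z and miR-154-z lay nearest to Mir329 and Mir323, not to a hairpin of their own name. That is the number of mismatches of miR-430-y to its nearest mouse hairpin. The pro-B to mature B ratio of tags, without scaling, was 1.48 for the 10 rows (1.22 to 1.80). These rows were high and low in the same libraries as the members, their origin was not tested, and adding them to the member sum left its ratios at 0.0838 for pre-B over pro-B, 0.613 for immature B over pre-B, 9.85 for mature B over immature B and 0.506 for mature B over pro-B.

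As sums, other imprinted miRNAs had another course over the stages. The 36 miRNAs of families known from the cluster inside Sfmbt2, a paternally expressed gene, summed to 1768, 1010, 732 and 84.9 CPM, lowest in mature B cells. These rows hold 29 sequences, some listed under several names with the same tags, and with each sequence counted once the sums were 1189, 742, 523 and 75.4 CPM. Also lowest there was the sum of 6 further imprinted miRNAs, at 1095, 867, 519 and 235 CPM. The Dlk1-Dio3 members, at 982, 88.6, 55.5 and 504 CPM, were under both lists in pre-B and immature B cells and above both in mature B cells. The direction from immature B to mature B cells was upwards for the summed Dlk1-Dio3 members and downwards for the other sums, without a replicate check for either. Single miRNAs could go otherwise. miR-335-5p, from the imprinted gene Mest, had 53, 7, 29 and 30 tags and met the rule for a low middle.

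**Figure D5:**
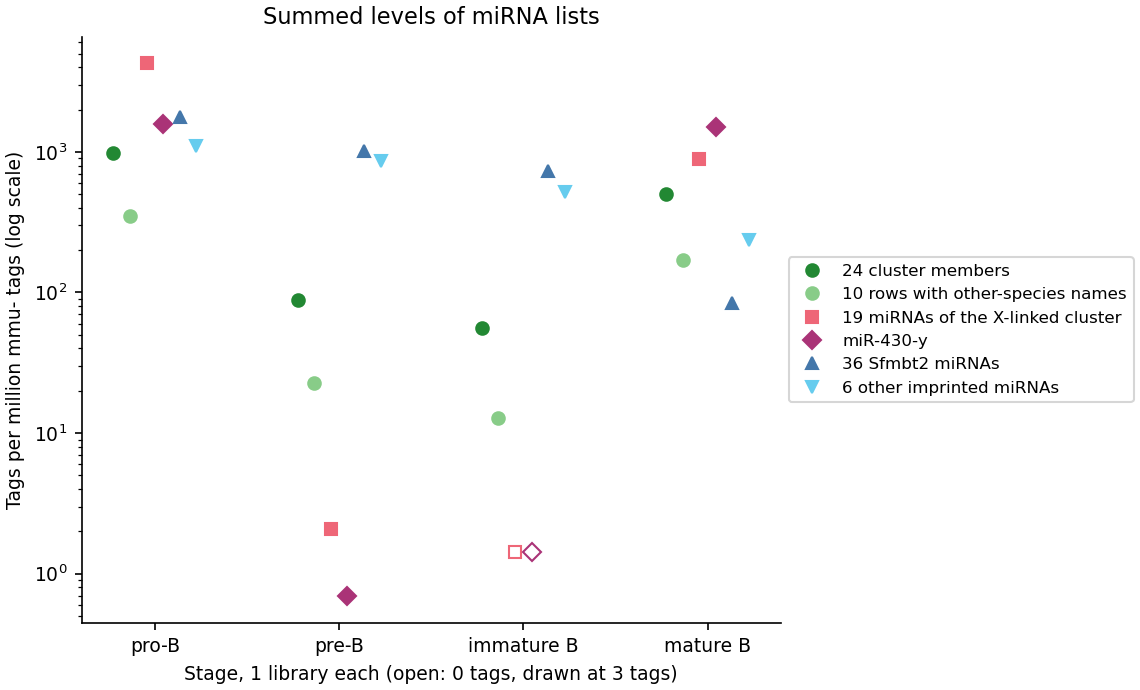
Points are summed CPM of the mmu- total on a log axis in the library of each stage. Shown are the 24 members, 10 rows of the same families named for other species and 19 miRNAs of the X-linked cluster. Also shown are the fish-type row miR-430-y and the other imprinted miRNAs, with open points for 0 tags drawn at the limit of 3 tags. The members go from 982 in pro-B to 55.5 in immature B and 504 in mature B cells, while the Sfmbt2 miRNAs go down to 84.9.

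Markers of other cells among the miRNAs did not share the course of the members throughout. The stromal miR-143 and miR-145a rows summed to 6288, 2760, 108 and 1743 CPM and were low in immature B cells only. The hepatocyte miRNA miR-122-5p was at 11954, 15915, 1091 and 1972 CPM. Those of the stem and endothelial miR-126a summed to 1621, 693, 163 and 210 CPM, those of the myeloid miR-223 to 328, 154, 124 and 122 and those of the erythroid list to 286, 302, 45.6 and 132. Neuronal miR-9 and miR-124 rows had 12 to 20 tags per library, and muscle miRNAs 27 to 73. The stem and progenitor genes of the long RNA libraries summed to 34.6, 16.7, 53.7 and 11.8 CPM of the mRNA counts, with 2 to 4 of the 6 at 0. In the same measure the stromal genes summed to 150, 283, 206 and 82.4, another course than that of the stromal miRNAs. The erythroid genes summed to 246, 197, 59.1 and 125, the myeloid genes to 936, 1049, 873 and 790 and the plasma cell genes to 316, 375, 282 and 111. The 5 plasmacytoid dendritic genes summed to 1214, 1128, 1683 and 496 CPM, of which Ly6d, also a gene of B-lineage cells, was at 214, 903, 1307 and 260. The dendritic Siglech was at 121, 0, 17.9 and 0 CPM, Bst2 at 298, 74.9, 179 and 44.7, Ccr9 at 161, 58.3, 89.5 and 47.1 and Tcf4 at 419, 91.6, 90.4 and 144, each highest in the pro-B library as the members were. In mature B cells, where the members were high again, Siglech was at 0 and Bst2 and Ccr9 were at their lowest. Tcf4 was above its pre-B and immature B values there. The part of any of these cells in the member tags was not tested, and fewer expressing cells and less RNA per cell cannot be told apart in pooled samples.

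The transcripts of the locus were near the limit of the long RNA libraries, which held 223495 to 867920 estimated mRNA counts and 2765507 to 3469757 estimated lncRNA counts. Meg3, the maternal noncoding RNA at the head of the miRNA host unit, had 10 estimated counts at pro-B, 4 at pre-B, 6 at immature B and 10 at mature B over its 11 listed transcripts. Rian had 2, 0, 2 and 0 counts and Mirg, which hosts much of the second group, 0, 0, 0 and 2. On the paternal side Dlk1, a membrane protein related to Notch ligands, had 10, 10, 2 and 4 counts (FPKM 1.08, 2.22, 0.22 and 0.44). Rtl1, the retrotransposon-derived gene opposite the first group, and Dio3, which inactivates thyroid hormone, were listed at 0 in all 4 libraries. Counts of this size are too low to compare stages, and a spliced host RNA need not follow the miRNAs cut from it.

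The genes that make and carry miRNAs were also highest at the ends when summed. The 9 genes from Drosha to the Argonautes came to 1097 CPM of the mRNA counts at pro-B, 562 at pre-B, 568 at immature B and 1363 at mature B. Ago2, the Argonaute that can cut a target, was at 463, 150, 206 and 657 CPM, and Dicer1, which cuts the hairpin, at 150, 62.4, 94.0 and 218. Drosha, which frees the hairpin from its transcript, was at 59.9, 41.6, 17.9 and 30.6 CPM, and its partner Dgcr8 at 83.0, 87.4, 40.3 and 58.9 CPM, from 4 to 72 counts each. Single genes of the list went otherwise, with the exporter Xpo5 at 76.0, 16.7, 89.5 and 81.2 CPM and the Dicer partner Tarbp2 at 18.4, 41.6, 8.95 and 13.0. The long RNA libraries with high Ago2 and Dicer1 were also the deeper ones in mRNA counts, and the part of these genes in the member levels was not tested.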

How the data were processed

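Small RNA and long RNA libraries of the 4 B-cell stages were used, 1 of each kind per stage, assigned to stages by their labels. The miRNA table holds counts of tags per miRNA as deposited, after the authors had removed other small RNAs and assigned tags by miRBase and mirdeep2. The TPM values that the authors deposited are tags per 1000000 clean tags. For mRNAs and lncRNAs the authors deposited estimated counts of StringTie and FPKM values. The submitters' processing notes name Bowtie 0.12.2 and the build mm9, whereas positions and sequences here are RefSeq on GRCm38.p6, matched by name and sequence. The circRNA table was not used.

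The cluster members and all lists were chosen with earlier results of these data known. Counts were scaled to the mmu- total (CPM). Single values carry 95% exact Poisson intervals, shares exact binomial intervals and ratios exact conditional binomial intervals. A count of 0 was taken as up to 3 tags. A call needed a 2-fold difference and at least 10 tags in 1 library, with 0 set to 0.5 tag for the direction. No p-value was computed. The interval and call functions were tested on simulated data. Alternatives were other denominators (TMM of edgeR 4.0.16, size factors of DESeq2 1.42.0, all listed tags, TPM, the mmu- total without its 10 most abundant miRNAs), other filters and call rules, and sums without the member with the most tags or with all miRNAs of the region. Named were the 20 members with the most tags, up to 5 with the largest ratio in each direction between pro-B and mature B cells, the other arms of their hairpins and 6 genes of the locus. miR-299a, miR-382-3p and miR-487b-3p were named beyond this rule to account for all members. Named after their values were seen were miR-1247-5p, miR-10b-5p, miR-34c-5p, miR-215-5p, miR-146b-5p, miR-150-3p, miR-335-5p, miR-741-3p, miR-380-y, miR-494-z, miR-154-z and miR-430-y. Calculations used Python 3.11.15, scipy 1.17.1 and R 4.3.3.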

Additional observations from a re-analysis of the deposited data

Results flagged for a closer look

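Signal besides that of the members was found in 3 sets of rows that are no members by the name rule. Of these sets, the miRNAs of the X-linked cluster are part of the mmu- total. The 10 rows with other-species names of the member families had 267 summed tags at pro-B, 33 at pre-B, 27 at immature B and 180 at mature B, each above the limit of 3 tags that a count of 0 allows. The 19 miRNAs of the X-linked cluster known from testis had 3274 summed tags in the pro-B library and 937 in the mature B library, and miR-430-y, of a family known from fish, had 1218 and 1587. In the pre-B and immature B libraries these last sets had at most 3 tags. Which RNA gave these tags was not tested.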

How the results depend on the processing

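No paired analysis was possible because the groups compared share fewer than 2 replicate numbers. With 1 library per stage none could be left out in turn. No ratio changed direction where it had been at least 2-fold. Of 140 values of 28 single-member ratios, 134 stayed within their counting interval, and the 6 that left it were those of miR-127-3p. The intervals of the other members were wide because their tags were few, such as 0.00112 to 0.333 for miR-369-3p in pre-B over pro-B cells. Their values could thus hardly leave them, and the 134 are no sign of stable ratios.

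For pre-B over pro-B the ratio of the summed tags (0.0902) became 0.136 with TMM factors, 0.141 with DESeq2 size factors and 0.116 without the 10 most abundant miRNAs. For mature B over pro-B (0.513) it became 0.787, 0.943 and 0.760 under the same settings and 0.618 without miR-127-3p. Without miR-127-3p it was 1.37 for immature B over pre-B (0.627 with it) and 5.11 for mature B over immature B (9.07 with it). The summed level became 749, 71.3, 44.8 and 384 in deposited TPM, 815 in pro-B and 435 in mature B cells over all listed tags, and 220, 19.4, 26.6 and 136 CPM without miR-127-3p, from pro-B to mature B cells. At least 10 tags were reached by 8, 1, 2 and 9 members, and at least 3 tags by 7 in pre-B cells.

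Counts of members called moved mainly with the tag filter. Without a filter, 1 tag against 0, set to 0.5, could be enough for a call. For pre-B against pro-B cells 1 was higher and 17 lower of 20 members, beside 80 and 265 of 617 mmu- miRNAs. In immature B against pre-B cells 8 were higher and 7 lower of 18, beside 126 and 141 of 596. In mature B against immature B cells 16 were higher and 2 lower of 20, beside 203 and 205 of 609. In mature B against pro-B cells 7 were higher and 11 lower of 22, beside 91 and 321 of 595. With at least 20 tags, 4 of 4 members were lower in pre-B cells than at the pro-B stage, beside 126 of 329 mmu- miRNAs. In immature B against pre-B cells 0 of 1 was higher, beside 23 of 304. In mature B against immature B cells 1 of 1 was higher, beside 96 of 317. In mature B against pro-B cells 0 were higher and 4 lower of 4, beside 32 and 165 of 319. Where the counting interval also had to leave out 1, 0 of 2 were higher in immature B than in pre-B cells, beside 29 of 369. Under that rule 1 of 13 was higher in mature B than in pro-B cells, beside 39 of 383. Of 13 members, those lower in mature B than in pro-B cells were 3 with TMM factors, 2 with DESeq2 size factors and 3 without the 10 most abundant miRNAs. Under the same settings 149, 131 and 154 of 383 mmu- miRNAs were lower.

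Of the 387 mmu- miRNAs with enough tags, 25 were higher and 159 lower for pre-B against pro-B cells. These became 60 and 103 with TMM factors, 68 and 101 with DESeq2 size factors and 80 and 265, of 617, without a filter. Those higher became 43 without the 10 most abundant and 46 at 1.5-fold. In mature B against pro-B cells 43 were higher and 202 lower of 383. They became 94 and 131 with DESeq2 size factors and 91 and 321, of 595, without a filter. Those higher became 80 with TMM factors, 76 without the 10 most abundant and 70 at 1.5-fold. In immature B against pre-B cells the 40 higher, of 369, became 126 of 596 without a filter and 23 of 304 at 20 tags. The 65 lower became 141 of 596 without a filter and 103 of 369 at 1.5-fold. In mature B against immature B cells 123 higher and 110 lower of 385 became 203 and 205 of 609 without a filter. The cause of the differences between scalings was not tested.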

Other observations

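Of the 27 families of the rule without a row, none could be given a level, since the table keeps a miRNA only from 3 tags over the 4 libraries, and 4 of the 24 listed members stood at exactly this total.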
